A study of Mus musculus with 30 samples.

Results

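The genes described here are 9 genes of the B-cell lineage, taken by name from the 43629 genes of the count table: Igll1, Vpreb1, Vpreb3, Rag1, Cd79a, Cd79b, Ms4a1, Pax5 and Ebf1. The first 4 are used mainly by B-cell precursors and are called the precursor genes. Cd79a, Cd79b, Ms4a1 and Pax5 are also expressed by mature B cells and are called the shared B-lineage genes, and Ebf1 is given apart. Their RNA was measured by RNA-seq in 30 libraries, each from the fracture callus of 1 male C57BL/6J mouse, an inbred strain, with 3 mice per diet and day. The mice were 20 weeks old when an open osteotomy was made in the right tibia and stabilised with an intramedullary nail. Lean mice received a lean diet, and their 12 libraries cover d3, d5, d7 and d10 after fracture. DIO mice were obese from a high-fat diet that was kept up until harvest, and their 18 libraries cover the same 4 days, d14 and d21. Soft tissue was removed and the intact bone around the callus was avoided. Lean callus was not analysed here after d10, so that the late stages of healing and the DIO diet cannot be told apart.

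B cells are made in the bone marrow. A pro-B cell joins the segments of its immunoglobulin heavy-chain gene with the RAG recombinase, of which Rag1 is the cutting subunit. The new heavy chain is then placed on the surface of the pre-B cell as the pre-B receptor, together with the surrogate light chain encoded by Igll1 (lambda5) and Vpreb1. Vpreb3 encodes a related protein that binds immunoglobulin chains inside precursor cells. Cd79a and Cd79b encode the signalling chains that the pre-B receptor and the later B-cell receptor share, and Ms4a1 encodes CD20, a surface protein that is gained late in this development. Ebf1 and Pax5 encode the transcription factors that specify and hold the B-cell fate. Ebf1 is also used by adipocytes and marrow stromal cells. Callus RNA mixes many cell types, so that fewer B-lineage cells and less RNA per B-lineage cell cannot be told apart in any result given here.

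On the mouse genome GRCm38, Igll1 (chr16:16860671-16863985) and Vpreb1 (chr16:16868403-16870843) are neighbours on the minus strand of the same chromosome, Vpreb3 lies at chr10:75943057-75949657 and Rag1 at chr2:101638282-101649501. The 250 bases before the RefSeq start of 3 precursor genes (build GRCm38.p6) are shown because these genes moved together in the callus and their windows hold no annotated exon. Capitals mark matches, on either strand, to motifs that B-lineage regulators are known to bind, namely the EBF core CCCNNGGG, the E-boxes CAGCTG and CAGGTG, and the Ikaros-type motif TGGGAA.
Igll1, chr16:16863986-16864235, minus strand: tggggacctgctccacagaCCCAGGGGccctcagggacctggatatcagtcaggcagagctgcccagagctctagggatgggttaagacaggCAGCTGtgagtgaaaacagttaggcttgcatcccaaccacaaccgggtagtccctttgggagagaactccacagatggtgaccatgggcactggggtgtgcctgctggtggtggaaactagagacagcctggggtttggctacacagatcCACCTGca
Vpreb3, chr10:75948050-75948299, plus strand: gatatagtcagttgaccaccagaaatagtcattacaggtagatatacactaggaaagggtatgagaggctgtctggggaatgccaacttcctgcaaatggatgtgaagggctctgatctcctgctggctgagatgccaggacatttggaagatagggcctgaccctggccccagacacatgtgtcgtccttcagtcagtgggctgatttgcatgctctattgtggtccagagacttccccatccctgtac
Rag1, chr2:101649533-101649782, minus strand: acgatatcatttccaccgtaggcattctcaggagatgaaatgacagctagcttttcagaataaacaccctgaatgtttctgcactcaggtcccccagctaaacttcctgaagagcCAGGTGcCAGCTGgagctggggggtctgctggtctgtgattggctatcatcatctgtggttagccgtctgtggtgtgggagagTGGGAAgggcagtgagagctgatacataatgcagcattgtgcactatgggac
The Igll1 window held 1 match to the EBF core and 1 to each E-box, and the Rag1 window held 1 match to each E-box and 1 to the Ikaros-type motif. None of these letters was found in the Vpreb3 window. Over all 32851 windows of the same length, CCCNNGGG was found in 11.8%, CAGCTG in 13%, CAGGTG in 17.2% and TGGGAA in 21.6%. The longer EBF motif TCCCNNGGG, which contains the core, was found in 0 of the 8 windows of members and in 5.6% of all windows. Of the 9 members 7 have a window in the RefSeq table, with 2 windows for Ebf1. These matches are descriptions of the letters and no binding was measured.

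Counts per library ran from 13247122 to 26365620 (median 16854427). Levels are given as CPM, the counts of a gene relative to all counts of its library, after scaling with TMM factors, which adjust the library size for differences in RNA composition. The callus label was checked against the summed levels of 6 chondrocyte and 6 osteoblast genes, which ran from 87.5 to 64060 CPM and from 3840 to 22210 CPM. Muscle RNA was present although soft tissue had been removed. The sum of 5 skeletal muscle genes reached 22570 CPM on DIO d10 and was 321.4, 2066 and 11300 CPM on DIO d21. The part of muscle RNA in the results was not tested. Single libraries stood apart in the lean groups. Lean d10 replicate 1 had the lowest sum of the 4 shared genes of all 30 libraries (2.13 CPM). Its sum of 8 genes of mature B cells (8.205 CPM) was not the lowest. That sum was at most 7.325 CPM on DIO d3 and at most 5.135 CPM on DIO d5. Lean d10 replicate 1 also had the highest chondrocyte sum (64060 CPM) and a low sum of 4 general leukocyte genes (410.2 CPM, against 487.5 and 607.1 in the other lean d10 libraries). Lean d3 replicate 2 and lean d5 replicate 2 were the highest of their groups in 8 and 9 of the 9 members, and lean d3 replicate 2 also had the highest erythroid (2798 CPM) and neutrophil precursor (12720 CPM) sums of its group. The part of these differences in the results was not tested, and values without single libraries are given where they change a call.

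In DIO callus, all precursor genes were low up to d7 and higher on d21. Igll1, the lambda5 chain of the surrogate light chain, was at 0, 0.164 and 0.303 CPM on d3 (0, 4 and 5 reads), at 1.25, 0.179 and 0.169 CPM on d5 and at 0.189, 0.147 and 0.739 CPM on d7. It was at 3.45, 10.5 and 7.91 CPM on d10, at 12.2, 23.5 and 31.3 CPM on d14 and at 68.4, 70.8 and 86.0 CPM on d21. Every library of d10, d14 and d21 was above every library of the days before it, and the 3 libraries of d21 were close to each other. Igll1 was higher on d21 than on d3 by 8.84 ± 0.75 (SE, n = 3 per day) on the log2 scale, the widest difference of the 9 members (95% interval 7.27 to 10.42, edgeR quasi-likelihood test, adjusted p = 3.69e-07).

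Vpreb1 encodes the other part of the surrogate light chain, and its levels moved with those of Igll1. It was at 0.120, 0.246 and 0.303 CPM on d3, at 7.26, 14.7 and 23.1 CPM on d14 and at 41.3, 34.2 and 46.7 CPM on d21. The d21 libraries were above the d14 libraries without overlap. The difference between d21 and d3 was 7.45 ± 0.63 (log2, SE, edgeR adjusted p = 3.69e-07). Vpreb1 and its neighbour in sequence Vpreb2 share a stretch of 759 bases at 97.4% identity, so that reads may have been divided between them or lost. Vpreb1 also shares 108 exonic bases (9.01% of its exonic length) with Top3b on the other strand.

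Vpreb3 was at 0.0600, 0.287 and 0.242 CPM on DIO d3, at 14.4, 36.2 and 20.9 CPM on d14 and at 36.8, 47.5 and 71.0 CPM on d21, with all libraries of d21 above all of d14. It was higher on d21 than on d3 by 7.92 ± 0.82 (log2, SE, edgeR adjusted p = 1.73e-06). Rag1, the recombinase subunit, was at 0.300, 0.164 and 0.121 CPM on d3, 8.36, 16.6 and 5.76 CPM on d14 and 13.5, 11.9 and 43.0 CPM on d21. Replicate 3 was far above the other d21 libraries, and the d14 and d21 libraries overlapped. Between d21 and d3 Rag1 differed by 6.84 ± 0.87 (log2, SE, edgeR adjusted p = 1.16e-05).

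The signalling chains of the receptor were present in all 30 libraries. Cd79a was at 1.62, 1.52 and 1.45 CPM on DIO d3, at 13.04, 19.8 and 10.2 CPM on d10, at 41.2, 82.5 and 61.96 CPM on d14 and at 82.9, 100.4 and 122.6 CPM on d21. Cd79b, its partner, was at 5.28, 4.14 and 3.93 CPM on d3, at 25.8, 36.6 and 23.3 CPM on d10, at 69.1, 131.3 and 90.6 CPM on d14 and at 186, 152.4 and 195.1 CPM on d21. In both genes the libraries of d3, d10, d14 and d21 formed 4 separate, ascending ranges. The difference between d21 and d3 was 6.05 ± 0.49 for Cd79a and 5.32 ± 0.43 for Cd79b (log2, SE, edgeR adjusted p = 3.23e-07 for each). Cd79a shares a stretch of 298 bases at 98.7% identity with Gm32220.

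Ms4a1 (CD20) was at 1.38, 0.246 and 0.666 CPM on DIO d3, at 5.06, 4.04 and 4.20 CPM on d10, at 17.6, 27.9 and 16.6 CPM on d14 and at 28.4, 14.4 and 33.4 CPM on d21. The d21 and d14 libraries overlapped, with replicate 2 of d21 below every library of d14. Between d21 and d14 Ms4a1 differed by 0.30 ± 0.53 (log2, SE, 95% interval -0.81 to 1.40, edgeR adjusted p = 0.724), against 5.10 ± 0.67 between d21 and d3 (adjusted p = 1.53e-05).

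Pax5, the factor that holds the B-cell fate, was at 1.62, 0.574 and 0.424 CPM on DIO d3, at 14.0, 29.4 and 16.5 CPM on d14 and at 32.5, 41.5 and 48.7 CPM on d21. The difference between d21 and d3 was 5.57 ± 0.71 (log2, SE, edgeR adjusted p = 1.21e-05). Pax5 overlaps 5730488B01Rik on the other strand over 7.18% of its exonic length. Ebf1 behaved otherwise than the other members: it was at 19.4 to 24.5 CPM on DIO d3 and at 52.7 to 72.7 CPM on d21, a difference of 1.45 ± 0.19 (log2, SE, edgeR adjusted p = 1.20e-05). In lean d10 replicate 1, where Cd79a was at 0.626 CPM and Igll1 and Ms4a1 were at 0, Ebf1 was at 26.6 CPM, between the lowest and the highest of the other lean libraries. Over the 30 libraries the 28 pairs of the other 8 members had Pearson's r of 0.864 to 0.981 in log2(CPM + 0.1), and the 8 pairs with Ebf1 had r of 0.624 to 0.725. These are descriptions over libraries that share groups.

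**Figure D1:**
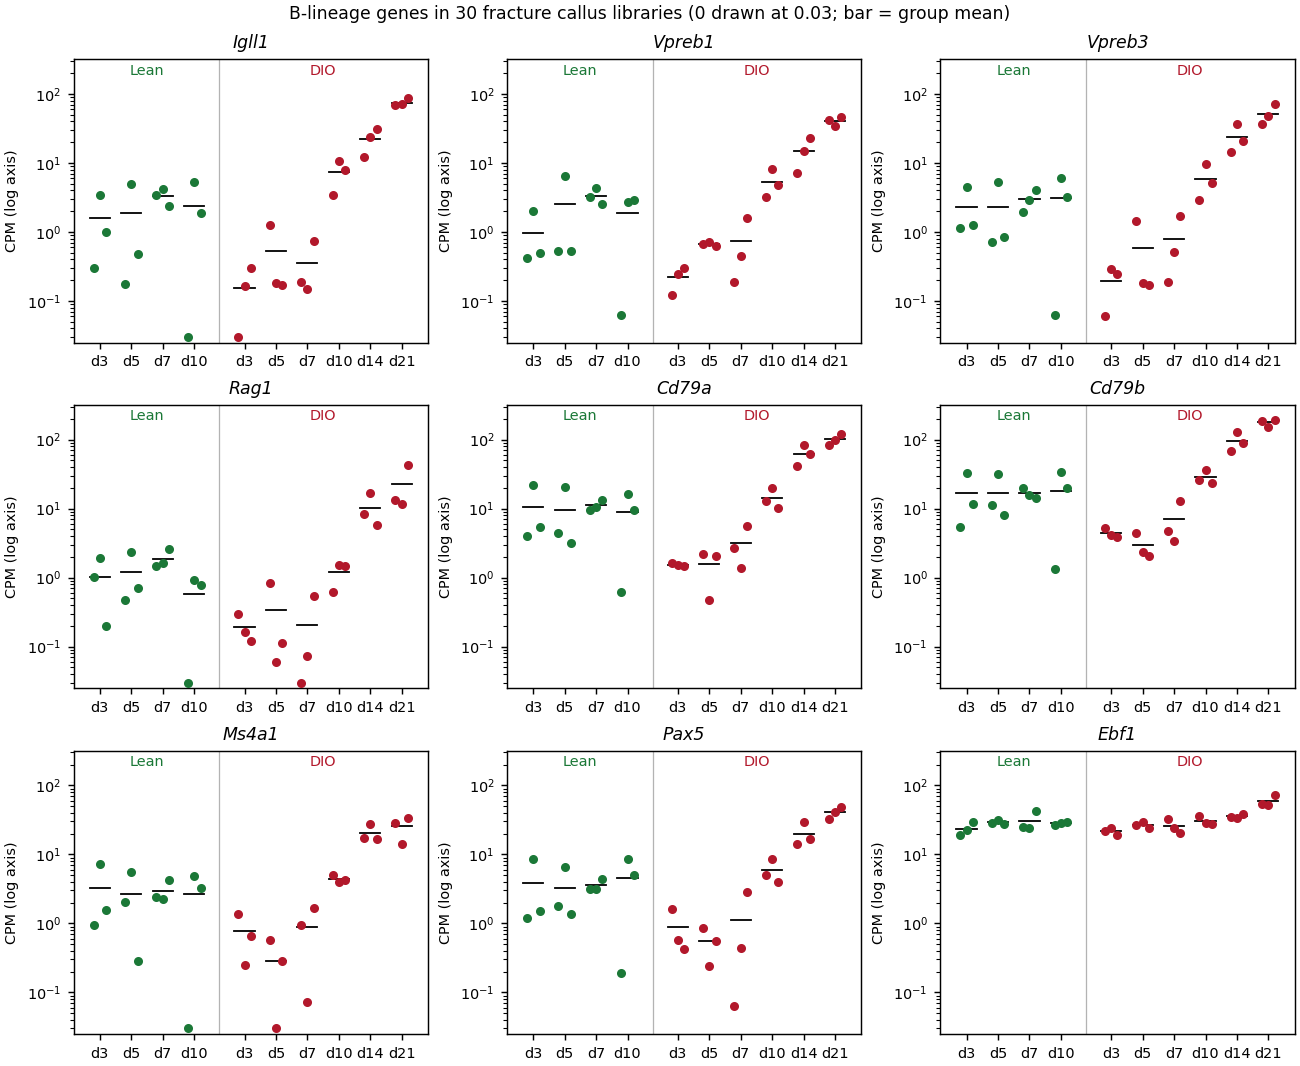
CPM (log axis) of the 9 members in each of the 30 libraries, by day, with lean libraries in green, DIO libraries in red, group means as black bars and values of 0 drawn at 0.03 CPM. In 8 members the DIO libraries climb from 5.28 CPM or less on d3 to between 11.9 and 195.1 CPM on d21, while Ebf1 moves from 19.4 to 24.5 CPM on d3 to 52.7 to 72.7 CPM on d21.

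All 9 members differed between the DIO days (edgeR quasi-likelihood F-test over 6 days), in a test that called 59.1% of the 16995 genes tested. All 9 were higher on d21 than on d3, where 45.3% of the genes were called in either direction, and all 9 had no overlap between these days, which held for 28.8% of the genes tested in the direction of a higher level. The median log2 difference between d21 and d3 was 7.69 over the 4 precursor genes and 5.44 over the 4 shared B-lineage genes, against 0.03 over all genes tested.

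Most of the rise in DIO callus fell after d7. Between d3 and d5 and between d5 and d7, 0 of the 9 members passed the test, where edgeR called 1.68% and 0.0177% of the genes. In each step 1 member had an unadjusted p under 0.05, as had 2333 and 2411 of the 16995 genes. DESeq2 called 0 members in both steps, where it called 575 and 336 genes. From d7 to d10, 7 of 9 members rose, where 13% of the genes were called in either direction and 1021 of 16995 were called higher. Igll1 rose by 4.32 ± 0.69, Vpreb3 by 2.87 ± 0.69, Vpreb1 by 2.84 ± 0.54, Pax5 by 2.37 ± 0.68, Ms4a1 by 2.27 ± 0.65, Cd79a by 2.14 ± 0.43 and Cd79b by 2.03 ± 0.38 (log2, SE). Rag1 differed by 2.53 ± 0.98 (adjusted p = 0.101) and Ebf1 by 0.26 ± 0.18 (adjusted p = 0.417). Without DIO d10 replicate 2 the count was 4, without DIO d7 replicate 1 or 2 it was 5, and in a fit of all 30 libraries it was 3. Over all genes 1510 to 2495 were called with 1 library left out and 2259 in the fit of all 30 libraries, against 2212. The calls that were lost without a single library were those of Ms4a1, Pax5 and Vpreb3, and without DIO d7 replicate 3 Rag1 passed as well.

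From d10 to d14, 2 of 9 members passed the test, where 0.759% of the genes were called. Cd79a rose by 2.11 ± 0.40 and Cd79b by 1.76 ± 0.36 (log2, SE, edgeR adjusted p = 0.0304 and 0.0355). Of the 9 members 7 had no overlap between these days, which 13.9% of the genes also had. Rag1 differed by 3.08 ± 0.70 (adjusted p = 0.0504), Ms4a1 by 2.22 ± 0.57 (adjusted p = 0.0706) and Igll1 by 1.61 ± 0.49 (adjusted p = 0.114). The count was 0 without any one of the libraries of d10 or without d14 replicate 1 or 2, 3 without d14 replicate 3, and 7 when genes were kept at 1 count. DESeq2 called 4 members (Cd79a, Cd79b, Vpreb1 and Rag1), the replicate block 1 (Cd79a) and a fit of all 30 libraries 0. The calls over all genes moved too, from 129 to 539 by DESeq2, 45 with the block and 2 in the fit of all 30 libraries. They were 329 with genes kept at 1 count and 0 to 459 with 1 library left out.

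From d14 to d21, 3 of 9 members rose, where 19.6% of the genes were called in either direction and 1800 of 16995 were called higher. They were Igll1 by 1.75 ± 0.47, Vpreb1 by 1.44 ± 0.43 and Ebf1 by 0.74 ± 0.18 (log2, SE, edgeR adjusted p = 0.0172, 0.0275 and 0.0107). Vpreb3 differed by 1.12 ± 0.54 (adjusted p = 0.147), Pax5 by 1.04 ± 0.56 (adjusted p = 0.198), Cd79b by 0.87 ± 0.35 (adjusted p = 0.0850) and Cd79a by 0.72 ± 0.38 (adjusted p = 0.183). Of the 9 members 7 had no overlap between these days, as had 18.6% of the genes in that direction. Over all genes 3820 were called by DESeq2, 3405 in a fit of all 30 libraries and 1285 to 4070 with 1 library left out, against 3335. By DESeq2 Igll1 did not pass. Without DIO d14 replicate 1, and in a fit of all 30 libraries, only Ebf1 passed, and Vpreb1 also lost its call without DIO d14 replicate 2 or DIO d21 replicate 1 or 3, while Cd79b passed without DIO d14 replicate 2. The comparisons of neighbouring days share libraries.

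**Figure D2:**
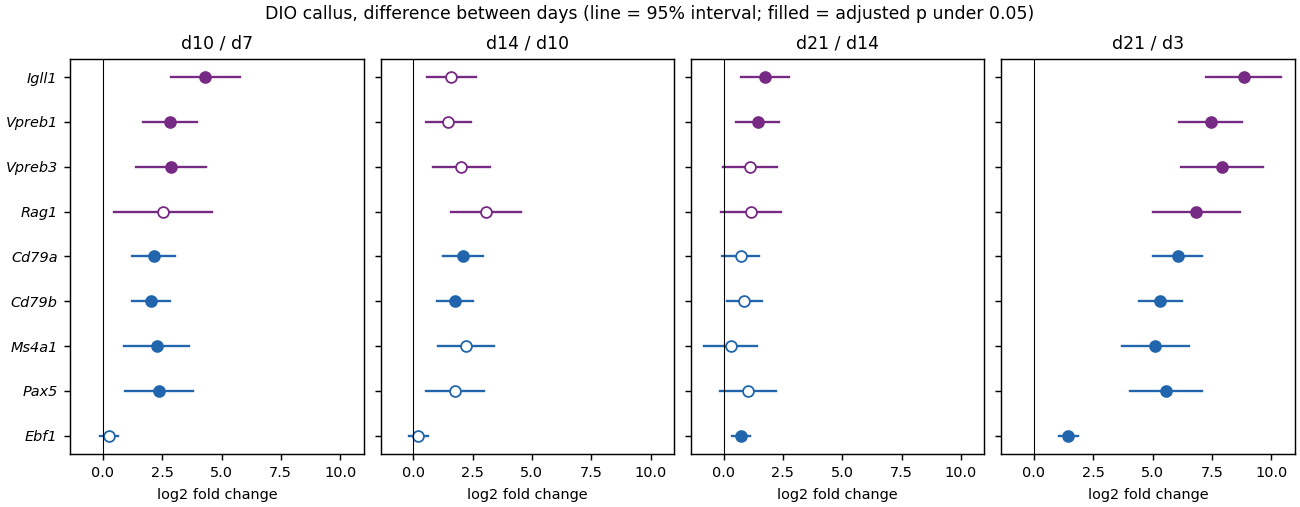
Log2 fold change with its 95% interval for the 9 members between days of DIO callus (4 panels), precursor genes in purple and the other members in blue, with filled points where the adjusted p is under 0.05. The filled points number 7 for d10 over d7, 2 for d14 over d10, 3 for d21 over d14 and 9 for d21 over d3.

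The balance between precursor and shared B-lineage genes was described by the mean log2(CPM + 0.1) of the 4 precursor genes minus that of Cd79a, Cd79b, Ms4a1 and Pax5, with no test, since the members were chosen for it. In DIO callus this difference was -1.38 ± 0.65 on d10, -1.29 ± 0.24 on d14 and -0.64 ± 0.21 on d21 (SD, n = 3). The 3 libraries of d21 (-0.83, -0.68 and -0.42) were above the 3 of d14 (-1.50, -1.35 and -1.03). In counts, the precursor genes amounted to 29.8%, 33.6% and 43.6% of the shared genes on d14 and to 48.5%, 53.3% and 61.7% on d21. Igll1 alone gave 28.4% to 50.5% of the count of Cd79a on d14 and 70.1% to 82.6% on d21. Against Ms4a1, which is gained later in development, it gave 69.6% to 187.9% on d14 and 240.7% to 492.2% on d21. On d10 Igll1 gave 26.5%, 53.1% and 77.4% of the count of Cd79a and 68.2%, 260.7% and 188.3% of that of Ms4a1. Single d10 libraries were thus already within the d21 ranges of these ratios. With Ms4a1 alone as the shared side, the mean difference turned positive on d21 (0.78, against -0.64 with the 4 genes) and on d5 (0.71).

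On the early DIO days the same difference rested on few reads. The 4 precursor genes had 8, 21 and 16 reads in the 3 libraries of d3, and the difference was -2.43 ± 0.94 on d3, -0.93 ± 0.65 on d5 and -1.91 ± 0.60 on d7. In lean callus it was -2.13 ± 0.37 and -1.91 ± 0.80 at the first 2 time points, -1.24 ± 0.27 on d7 and -1.87 ± 0.15 at the last. The lean d10 value includes replicate 1, with 2 precursor reads against 34 of the shared genes. These values overlapped between most groups.

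**Figure D3:**
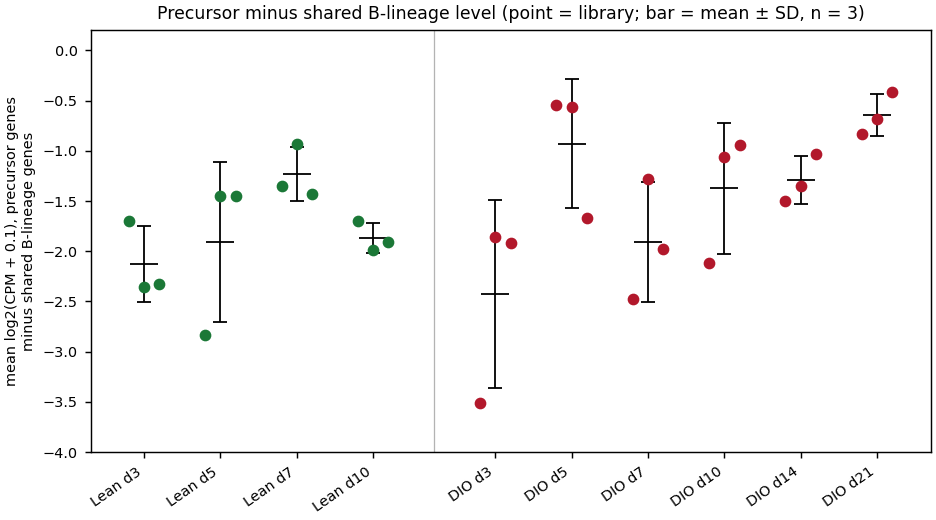
Mean log2(CPM + 0.1) of the 4 precursor genes minus that of the 4 shared B-lineage genes in each library, with the mean ± SD of each group of 3 mice, lean in green and DIO in red. The DIO d21 libraries lie between -0.83 and -0.42 and the DIO d14 libraries between -1.50 and -1.03, while the DIO d3 libraries spread from -3.51 to -1.86.

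Levels were also divided by the joint length of all annotated exons of a gene. Transcripts that leave out some exons are shorter, and which transcripts were present was not measured, so the order between genes is approximate. Per kilobase of exon, the order on DIO d21 was Cd79b with 124.3 ± 15.7 CPM per kb, Cd79a with 69.97 ± 13.7, Vpreb3 with 60.3 ± 20.3, Igll1 with 34.7 ± 4.4 and Vpreb1 with 34.0 ± 5.2 (SD, n = 3). The libraries of the neighbours Cd79a and Vpreb3 overlapped, as did those of Igll1 and Vpreb1. Ebf1 (6.11 ± 1.17), Pax5 (4.62 ± 0.91), Ms4a1 (4.11 ± 1.59) and Rag1 (3.45 ± 2.65) followed, each overlapping its neighbour. On DIO d3 the order was led by Cd79b (3.11 ± 0.51) and Ebf1 (2.24 ± 0.26), with Cd79a at 1.05 ± 0.06 CPM per kb and the other 6 members at 0.229 or less.

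In lean callus no member passed a test between days. Igll1 was at 0.297, 3.44 and 1.00 CPM on lean d3, at 0.176, 4.96 and 0.474 CPM on d5, at 3.46, 4.18 and 2.40 CPM on d7 and at 0, 5.30 and 1.86 CPM on d10. Cd79a was at 4.03, 21.8 and 5.35 CPM on d3, at 4.41, 20.8 and 3.18 CPM on d5, at 9.49, 10.6 and 13.5 CPM on d7 and at 0.626, 16.6 and 9.73 CPM on d10. The mice of d3, d5 and d10 spread over a wider range than the means of the days, and the 3 libraries of d7 were close together. Of the 9 members 0 passed the F-test over the 4 lean time points, where 19% of the 16471 genes tested were called (edgeR, smallest adjusted p 0.501 for Ebf1, with 0 members at an unadjusted p under 0.05 and 0 called by DESeq2). In the steps d3 to d5, d5 to d7 and d7 to d10 and from d3 to d10, 0 members passed by edgeR or DESeq2 and 0 had an unadjusted p under 0.05, where edgeR called 0.449%, 0, 2.73% and 29.3% of the genes. For d5 to d7, 926 of the 16471 genes had an unadjusted p under 0.05 and DESeq2 called 33. These tests do not show that the levels were equal: the spread between mice leaves wide limits, and without any single library the count stayed at 0.

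The diets were compared within each day, with 3 mice against 3 and separate lean and DIO libraries on each day. On d3, 6 members could be tested, since Igll1, Vpreb1 and Rag1 were left out by the filter on low counts. Vpreb3 was at 1.13, 4.52 and 1.25 CPM in lean and at 0.0600, 0.287 and 0.242 CPM in DIO callus, a difference of -3.47 ± 0.74 (log2, SE, edgeR adjusted p = 0.114). Cd79a, at 4.03 to 21.8 CPM in lean and 1.45 to 1.62 CPM in DIO callus, differed by -2.76 ± 0.64 (adjusted p = 0.121). By edgeR 0 of the 6 passed, where 0 of 15772 genes were called, 5 of the 6 and 2374 genes had an unadjusted p under 0.05, and DESeq2 called 726 genes and 3 of the 6 members (Cd79a, Cd79b and Vpreb3), as did edgeR with genes kept at 1 count. With genes kept at 1 count 515 genes were called. With the replicate number as a block, 1 member (Vpreb3) and 325 genes passed. Of the 9 members 4 were lower in every DIO than in every lean library, which 12% of the genes tested also were. Markers of other cells were lower in every DIO library too: the neutrophil precursor sum (5982 to 12720 CPM in lean, 1146 to 2183 CPM in DIO callus), the erythroid sum (353.2 to 2798 against 259.6 to 312.4 CPM), the T-cell sum (16.5 to 36.7 against 7.57 to 9.06 CPM) and the general leukocyte sum (930.5 to 1436 against 467.5 to 854.2 CPM). Their part in the result was not tested.

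On d5 edgeR called 0 of the 7 members tested, where 1.08% of the genes were called, and Ms4a1 and Igll1 were not tested. Cd79b differed most clearly, with 11.2, 31.5 and 8.15 CPM in lean and 4.46, 2.39 and 2.03 CPM in DIO callus, a difference of -2.50 ± 0.55 (log2, SE, adjusted p = 0.0798). Of the 7 members 3 had an unadjusted p under 0.05, as had 2913 of the 15722 genes. DESeq2 called 2 members (Cd79b and Pax5) and 1150 genes. EdgeR called 1 member (Cd79b) without lean d5 replicate 3 or with genes kept at 1 count, where 935 and 565 genes were called. The 3 members Cd79a, Cd79b and Pax5 had no overlap, with every DIO library lower, as had 12.3% of the genes. The general leukocyte sum (789.6 to 1177 CPM in lean, 407.3 to 430.3 CPM in DIO callus), the T-cell sum (31.9 to 49.2 against 12.96 to 14.4 CPM), the monocyte and macrophage, plasmacytoid dendritic cell and marrow stromal sums were also lower in every DIO library, and the part of these cells was not tested.

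On d7, 8 of the 9 members were lower in every DIO library than in every lean library, which held for 11.9% of the genes tested, and Igll1 passed the test, where 2.32% of the genes were called. Igll1 was at 3.46, 4.18 and 2.40 CPM in lean and at 0.189, 0.147 and 0.739 CPM in DIO callus. The difference was -3.17 ± 0.60 (log2, SE, edgeR adjusted p = 0.0293). Rag1 differed by -3.15 ± 0.84 (adjusted p = 0.0925), Vpreb1 by -2.15 ± 0.64 (adjusted p = 0.128), Cd79a by -1.78 ± 0.43 (adjusted p = 0.0706), and Ebf1, the member that overlapped, by -0.24 ± 0.27 (adjusted p = 0.720). On the same day the sums of T-cell genes (28.1 to 34.4 CPM in lean, 9.85 to 25.2 CPM in DIO callus), monocyte and macrophage genes (983.7 to 1634 against 774.3 to 836.4 CPM), general leukocyte genes (796.9 to 1019 against 325.3 to 786.6 CPM), marrow stromal genes (589.4 to 803 against 323.7 to 403.6 CPM) and plasmacytoid dendritic cell genes (206.4 to 238.7 against 150.1 to 161.9 CPM) were lower in every DIO library, and the chondrocyte sum was higher (3715 to 14260 against 15390 to 37230 CPM). The part of these cells in the members' difference was not tested.

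The number of calls on d7 hung on single libraries. DIO d7 replicate 3 was the highest DIO library of d7 in 8 members, and without it 7 members passed, all but Ms4a1 and Ebf1. Over all genes 936 were then called, against 366 with all 6 libraries. Without any one of the other 5 libraries of d7, 0 members passed, where 29 to 242 genes were called. DESeq2 called 5 members and 944 genes, the replicate block 2 and 320, and a fit of all 30 libraries 0 and 675. DIO d7 replicate 3 also had the highest erythroid sum of its group (3389 CPM against 597.5 and 271 CPM) and the highest neutrophil precursor sum (5329 CPM against 2194 and 773.4 CPM), and the part of these in the result was not tested.

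On d10 the fitted fold change of each member was above 0 (DIO over lean), but none passed the test. Igll1 was at 0, 5.30 and 1.86 CPM in lean and at 3.45, 10.5 and 7.91 CPM in DIO callus, a difference of 1.63 ± 1.00 (log2, SE, 95% interval -0.65 to 3.899, edgeR adjusted p = 0.705). Of the 9 members 0 passed, 0 had an unadjusted p under 0.05 and DESeq2 called 0, where edgeR called 0 of 15341 genes, 1082 had an unadjusted p under 0.05 and DESeq2 called 41. Vpreb1 was the 1 member with no overlap (DIO higher), which 6.84% of the genes also showed. Lean d10 replicate 1 sets much of the lean spread, and without it 0 members passed as well, with Pax5 then at -0.20 (log2) in place of 0.37. On d10 the adipocyte and skeletal muscle sums were higher and the chondrocyte sum lower in every DIO library, and their part was not tested.

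The change of the diet difference from d7 to d10 was 4.82 ± 1.65 for Igll1, 4.24 ± 1.48 for Rag1 and 3.67 ± 1.31 for Vpreb1 (log2, SE, edgeR adjusted p = 0.0879, 0.0939 and 0.1). By edgeR 0 of 9 members passed, where 5.07% of the genes were called. An unadjusted p under 0.05 was found for 4 members and for 3952 of the 17057 genes tested. DESeq2 called 2 members (Vpreb1 and Rag1) and 1496 genes. Without DIO d7 replicate 3, 2 members passed (Vpreb1 and Rag1), and without lean d10 replicate 2, 1 (Igll1), where 1414 and 1311 genes were called. From d3 to d10 the change was 4.93 ± 1.73 for Igll1 and 4.38 ± 1.51 for Vpreb3 (adjusted p = 0.155 and 0.148). Here 0 of 9 members passed by edgeR and 0 by DESeq2, where edgeR called 0.00586% of the genes and DESeq2 452 genes. An unadjusted p under 0.05 was found for 6 members and for 3114 of the 17057 genes. A diet difference that changed between days was therefore not shown for these genes by the edgeR test, and both changes use the same d10 libraries.

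**Figure D4:**
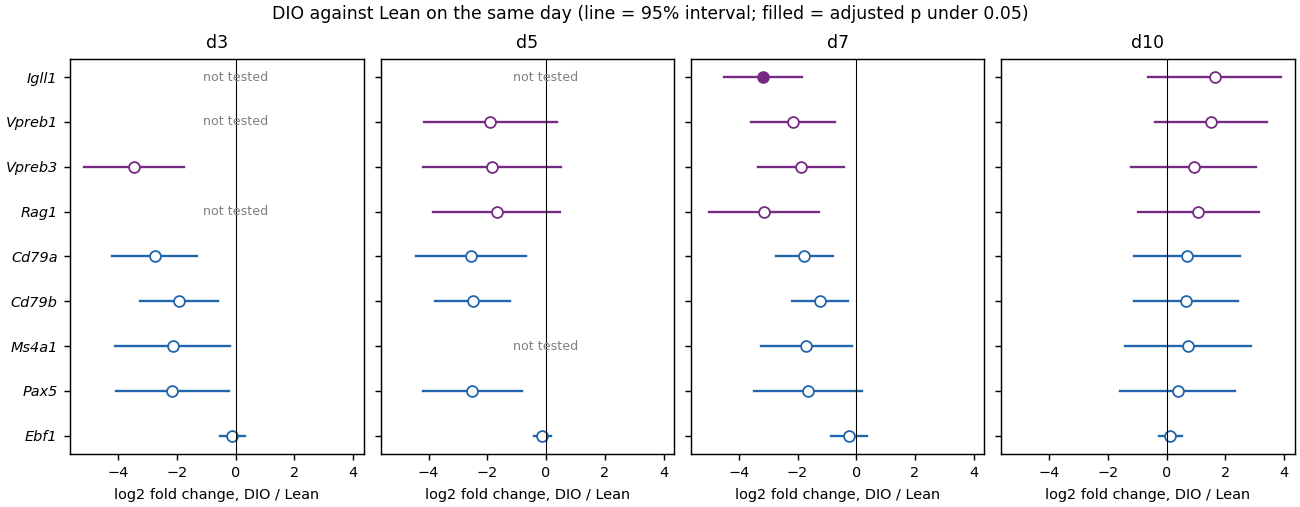
Log2 fold change of DIO over lean callus with its 95% interval for the 9 members on d3, d5, d7 and d10, precursor genes in purple and the other members in blue, with filled points where the adjusted p is under 0.05. The point of Igll1 on d7 (-3.17) is the only filled one, and the values lie below 0 on d3, d5 and d7 and above 0 on d10 for all members tested, although those of Ebf1 (d3, d7 and d10), Vpreb1 (d5) and Pax5 (d10) changed sign with 1 library left out.

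The other genes of the lineage were taken from lists. For all lists below, 3989 of the 16995 genes tested were called higher on DIO d21 than on d3 and 3709 lower. Of 8 further precursor genes 7 were higher on DIO d21 than on d3 and 0 lower. Dntt, the template-free polymerase that adds bases at the joined segments, was at 56.6 CPM on d21 and at 0.234 CPM on d3, a difference of 8.001 ± 0.89 (log2, SE, edgeR adjusted p = 3.41e-06). Il7r, the receptor for the interleukin that precursor B cells need, differed by 2.72 ± 0.34 (adjusted p = 1.10e-05), and Arpp21, also known from precursor lymphocytes, by 0.00 ± 0.50 (adjusted p = 0.996). From d14 to d21, 2 of these 8 rose, where 1800 of the 16995 genes tested were called higher and 1535 lower.

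All 10 further shared B-lineage genes were higher on DIO d21 than on d3, among them the coactivator gene Pou2af1 by 6.49 ± 0.32 (log2, SE, edgeR adjusted p = 2.33e-09). All 8 genes of mature B cells were higher too, such as Ighd, the heavy chain of IgD, at 100.1 CPM on d21 against 1.98 CPM on d3, by 5.67 ± 0.48 (adjusted p = 3.69e-07), and Fcer2a (CD23) by 5.10 ± 0.49 (adjusted p = 9.36e-07). From d14 to d21, 0 of these 8 passed the edgeR test, with a median log2 difference of 0.56, against 1.34 for the 8 further precursor genes and -0.03 for all genes tested. Each list holds only 8 genes, and no test of the difference between them was run.

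Of 12 plasma cell and antibody genes tested, 9 were higher on DIO d21 than on d3 and 2 lower. Jchain, the joining chain of secreted antibody, differed by 4.20 ± 0.74 and Mzb1, a chaperone gene of antibody-secreting cells, by 5.21 ± 0.53, whereas Xbp1 fell by 0.45 ± 0.15 and Sdc1 by 0.63 ± 0.21 (log2, SE, edgeR adjusted p = 2.32e-04, 1.51e-06, 0.0203 and 0.0190). Xbp1 and Sdc1 are known to be used by many other cells. All 10 further B-lineage transcription factors were higher, from Foxo1 by 0.36 ± 0.12 to Pou2af1, which is on 2 lists. Of 10 genes of receptor signalling 8 were higher, among them the kinase gene Blk by 4.86 ± 0.44, and Bcl6 was lower by 0.69 on the log2 scale (adjusted p = 6.32e-07 and 0.0299).

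Of 7 niche and survival ligands analysed, 5 were higher on DIO d21 than on d3, where 45.3% of all genes tested were called in either direction. Cxcl12, the chemokine that holds precursors in the marrow, was at 1693 CPM on d21 and at 256.7 CPM on d3, a difference of 2.72 ± 0.21, and Vcam1, an adhesion molecule of marrow stroma, differed by 2.56 ± 0.21 (log2, SE, edgeR adjusted p = 2.09e-07 and 3.23e-07). Il7, the cytokine itself, was at 3.48 CPM on d21 and at 1.19 CPM on d3, a difference of 1.54 ± 0.37 (adjusted p = 2.80e-03). From d14 to d21 the median of the 7 was 0.09. Flt3l was not analysed here.

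Markers of other marrow cells moved with the members. Of the 16995 genes tested, 3989 were called higher on DIO d21 than on d3 and 1800 higher than on d14. The sum of 8 erythroid genes was 259.6 to 312.4 CPM on DIO d3, 1547 to 4984 CPM on d14 and 10960 to 12750 CPM on d21, and all 8 were higher on d21 than on d3 and 5 higher than on d14. The sum of 8 neutrophil precursor genes was 1146 to 2183 CPM on d3, 1224 to 3625 CPM on d14 and 6709 to 12940 CPM on d21, with all 8 higher on d21 than on d3 and than on d14. The sum of 7 adipocyte genes was 112 to 267.5 CPM on d3, 522.7 to 745.8 CPM on d14 and 865.9 to 961.4 CPM on d21, with all 7 higher on d21 than on d3. All 7 T-cell genes were higher as well, from a sum of 7.57 to 9.06 CPM to one of 47.6 to 57.8 CPM, and 4 of 6 genes used to mark plasmacytoid dendritic cells, whereas of 7 monocyte and macrophage genes 0 were higher and 2 lower. The part of these cells in the members' levels was not tested. Rag1 and Dntt are also known from T-cell precursors, and the part of such cells in their levels was not tested.

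Over the 30 libraries the mean log2 level of the 4 shared genes had Pearson's r of 0.955 with that of the plasmacytoid dendritic cell list, 0.943 with the T-cell list, 0.884 with the niche and survival ligands, 0.879 with the erythroid list, 0.862 with the adipocyte list, 0.842 with the marrow stromal list, 0.687 with the neutrophil precursor list, -0.037 with the monocyte and macrophage list and -0.609 with the chondrocyte list. Ebf1 had r of 0.752 with the further precursor genes, 0.749 with the marrow stromal list, 0.722 with the genes of mature B cells, 0.711 with the further shared genes and 0.536 with the erythroid list. Of 17348 other genes, those closest to the precursor mean included Pou2af1 (r = 0.961), 4930426D05Rik (0.952), Blk (0.951) and Dntt (0.950), and those closest to the shared mean included Blk (0.979), H2-Ob (0.974), Ikzf3 (0.972) and Sit1 (0.960). These correlations are descriptions over libraries that share days and depth.

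**Figure D5:**
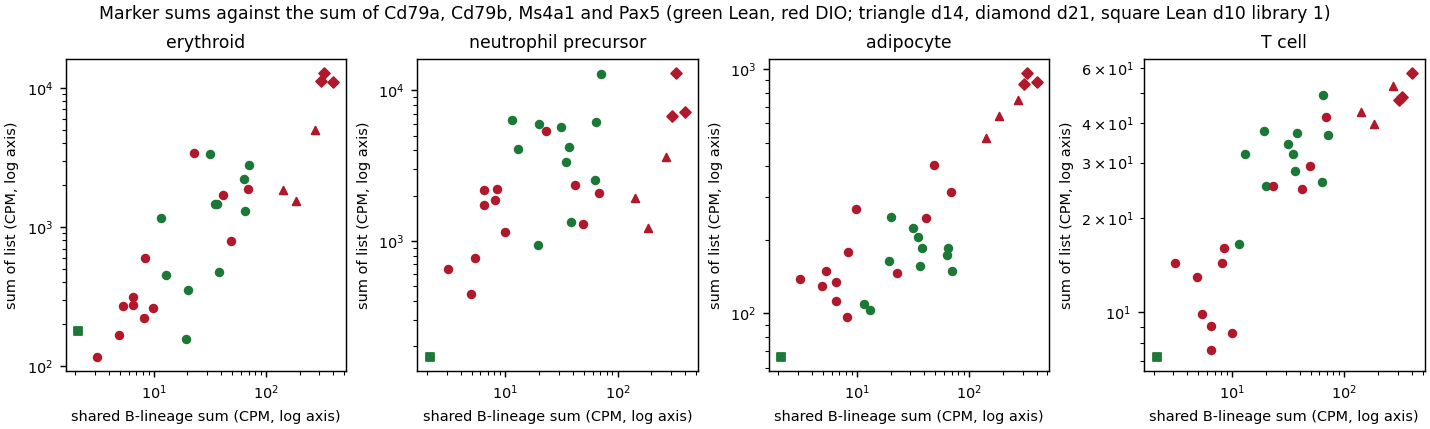
Summed CPM of the erythroid, neutrophil precursor, adipocyte and T-cell lists against the sum of Cd79a, Cd79b, Ms4a1 and Pax5 (both log axes) in 30 libraries, lean in green and DIO in red, with triangles for DIO d14, diamonds for DIO d21 and a square for lean d10 replicate 1. The DIO d21 libraries hold the 3 highest shared sums (308.7 to 399.8 CPM) and lean d10 replicate 1 the lowest (2.13 CPM).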

How the data were processed

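Callus RNA of 30 mice (3 per diet and day) was sequenced as stranded polyA libraries. The authors trimmed the reads with BBDuk, aligned them to GRCm38 with HISAT2 2.1.0 and counted them with HTSeq, and deposited raw read counts per gene for each mouse. The strand option and annotation of the counting are not given in the sources used here.

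Counts were analysed in R 4.3.3 with edgeR 4.0.16 (TMM factors, filterByExpr with a minimum of 10 counts, two-sided quasi-likelihood F-test, Benjamini-Hochberg adjustment over all genes tested, threshold 0.05). The SE is the log2 fold change divided by the root of F. Lean days were fitted over 12 libraries, DIO days over 18, diets over the 6 libraries of a day, and changes of the diet difference over the 24 libraries of d3 to d10. Figures were drawn with matplotlib 3.10.9. Symbols were taken from GENCODE for 42462 identifiers. A gene was taken as detected with 3 reads. All 30 within-group pairs of libraries were checked and differed beyond sampling noise (chi-square per degree of freedom 12.8 to 148).

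The members and the 18 gene lists were chosen with earlier results of these data known. All members are named. From each list at most 4 called genes, with the smallest adjusted p, could be named, and other named genes were chosen after their values were seen. A gene that is counted in the lists is not reported here by name or value. Alternatives were DESeq2 1.42.0, RLE and upper-quartile factors, 2 other filters, the replicate number as a block, all 30 libraries in 1 fit and each library left out. Replicate numbers mark different mice, and the labels give no pairing or batch. Libraries of the same number were treated as possibly related where r of their deviations was over 0.1 for all 3 numbers. This held for lean d7 against d5 (0.199 to 0.271), and its source is not known. In 4 other comparisons all 3 values were above 0 but not all over 0.1. P-values measure the spread between single mice. Intervals and detection limits cover no PCR error.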

Additional observations from a re-analysis of the deposited data

How the results depend on the processing

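With 3 mice per group, the spread between mice limits every comparison, and genes with few reads (the precursor genes in DIO callus up to d7) are also limited by depth. The RLE and upper-quartile factors and the filter of 0.5 CPM in 3 libraries changed no call of a member, and 9 of 9 members differed between DIO days and between d21 and d3 under all alternatives. Of 1213 refits of 85 fold changes of members, 5 changed sign, 40 lost the call and 42 gained it. These totals leave out 54 fold changes of 6 comparisons between days, of which 38 changed sign in some alternative.

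The count of members called for d10 against d7 in DIO callus (7) was 3 in a fit of all 30 libraries and 4 to 8 with 1 library left out. For d14 against d10 (2, by edgeR) it was 4 by DESeq2, 7 with genes kept at 1 count, 1 with the replicate block, 0 with all 30 libraries and 0 to 3 with 1 library left out. For d21 against d14 (3) it was 1 with all 30 libraries and 1 to 3 with 1 library left out. For the diets on d3 (0) it was 3 by DESeq2, 3 with genes kept at 1 count and 1 with the replicate block, and on d5 (0) 2, 1 and, with 1 library left out, 0 to 1. On d7 (1) it was 5 by DESeq2, 4 with genes kept at 1 count, 2 with the replicate block, 0 with all 30 libraries and 0 to 7 with 1 library left out. For the change of the diet difference from d7 to d10 (0) it was 2 by DESeq2 and 0 to 2 with 1 library left out. The number of all genes called moved under these alternatives as well, as given with the comparisons above. The cause of these changes was not tested. The replicate block changed no other count of members. It was fitted also for lean d7 against d5, where the replicate numbers met the rule on r given above, and called 0 members. The labels give no pairing of these libraries.

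The diet differences that changed sign with 1 library left out ranged, on the log2 scale, from -0.24 to 0.085 for Ebf1 on d3, from -0.45 to 0.083 for Ebf1 on d7, from -0.0050 to 0.19 for Ebf1 on d10, from -0.20 to 1.17 for Pax5 on d10 (negative without lean d10 replicate 1) and from -2.39 to 0.34 for Vpreb1 on d5 (positive without lean d5 replicate 2). For 6 comparisons without a called member the single fold changes are not given: 38 of these 54 changed sign in some alternative, and 0 passed the threshold in any.

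The precursor minus shared difference moved by more than its SD as follows. With Ms4a1 alone as the shared side it was -1.03, -0.47, -0.062 and -0.35 on lean d3, d5, d7 and d10, and -1.43, 0.71, -0.63, -0.23, -0.37 and 0.78 on the 6 DIO days in order. With Ebf1 included it was -2.57, -1.66 and -2.48 on lean d3, d7 and d10 and -1.90 and -2.69 on DIO d5 and d7. As the ratio of summed CPM it was -1.58 and -2.76 on lean d7 and d10 and -2.80 and -0.88 on DIO d7 and d21. With pseudocounts of 0.5 and 0.02 CPM it was -1.44 and -2.19 on lean d10. Leaving out 1 of 3 values always moves their mean by less than their SD, so that this rule cannot judge single libraries. With 1 library left out the difference ran from -2.71 to -1.89 on DIO d3, from -1.42 to -1.19 on DIO d14 and from -0.759 to -0.55 on DIO d21.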
